A study of Mus musculus with 18 samples.

Results

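The comparison described here is the genotype main effect in mouse microglia: libraries from 16p11dup mice against libraries from wild-type (WT) mice, over both treatments. It covers 8 16p11dup libraries and 10 WT libraries, which together are all 18 libraries analysed here. Its members are the 10055 genes, of 22428 in the table, with a count in at least 9 libraries, and treatment was kept as a term in the model. A gene counted in the 8 16p11dup libraries and in no WT library could not reach 9 libraries.

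Microglia were sorted from the medial prefrontal cortex (mPFC) as CD45-, CD11b- and P2ry12-positive cells, and their RNA was sequenced in bulk. There were 4 16p11dup-THC, 4 16p11dup-Veh, 4 WT-THC and 6 WT-Veh libraries, all on the C57BL6/J background. THC, the main psychoactive compound of cannabis, was given by daily subcutaneous injection (8 mg/kg) between postnatal days 30 and 51, and Veh mice received vehicle over the same days. 16p11dup mice carry an engineered duplication of the mouse interval that corresponds to human 16p11.2, and the WT mice were littermates. The duplication is present in every cell of these mice from conception, and microglia were sampled at 1 age only. Expected counts ranged from 7045444 to 15459286 per library. The median was 10328110 in 16p11dup libraries and 9639745 in WT libraries. Mapped reads, genes counted and reads on exons also overlapped between the genotypes, with exact permutation p-values of 0.955, 0.957 and 0.199. Libraries WT-Veh replicate 2, 16p11dup-Veh replicate 14 and WT-THC replicate 9 were least like the others, with mean correlations of 0.424, 0.441 and 0.459 against a highest value of 0.674.

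Microglia are the resident macrophages of the brain. They survey the tissue through surface receptors such as P2ry12 and Cx3cr1, clear debris through phagocytosis and lysosomal digestion, and take part in synapse remodelling during adolescence. A duplication adds gene copies, and genes inside it are often, but not always, transcribed in proportion to their copy number. Genes elsewhere in the genome can change only indirectly.

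No gene differed between the genotypes at a false discovery rate (FDR, Benjamini-Hochberg adjustment of the 10055 p-values) below 0.10, the threshold of the study. The smallest FDR was 0.999 in limma. The same count was 0 in edgeR and 109 in DESeq2, of which 59 were higher and 50 lower in 16p11dup. At an unadjusted p under 0.05, limma gave 197 genes higher in 16p11dup (1.96% of genes tested) and 193 lower (1.92%), together 3.88%. No gene had all 8 16p11dup libraries on one side of all 10 WT libraries (0%). Fold changes below are log2 of 16p11dup over WT on the scale of log2 CPM (counts scaled to library size) with 0.5 counts added. Their median over all genes was 0.03. The median standard error was 1.18 over all genes and 0.56 over the 3302 genes that were counted in every library at a mean log2 CPM of at least 5. The p-values measure the spread between libraries, since no source states that each came from a separate mouse. Genes named below are described with an unadjusted p, and none of them passed the FDR threshold in this limma fit. Some of them are among the 109 DESeq2 calls.

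**Figure D1:**
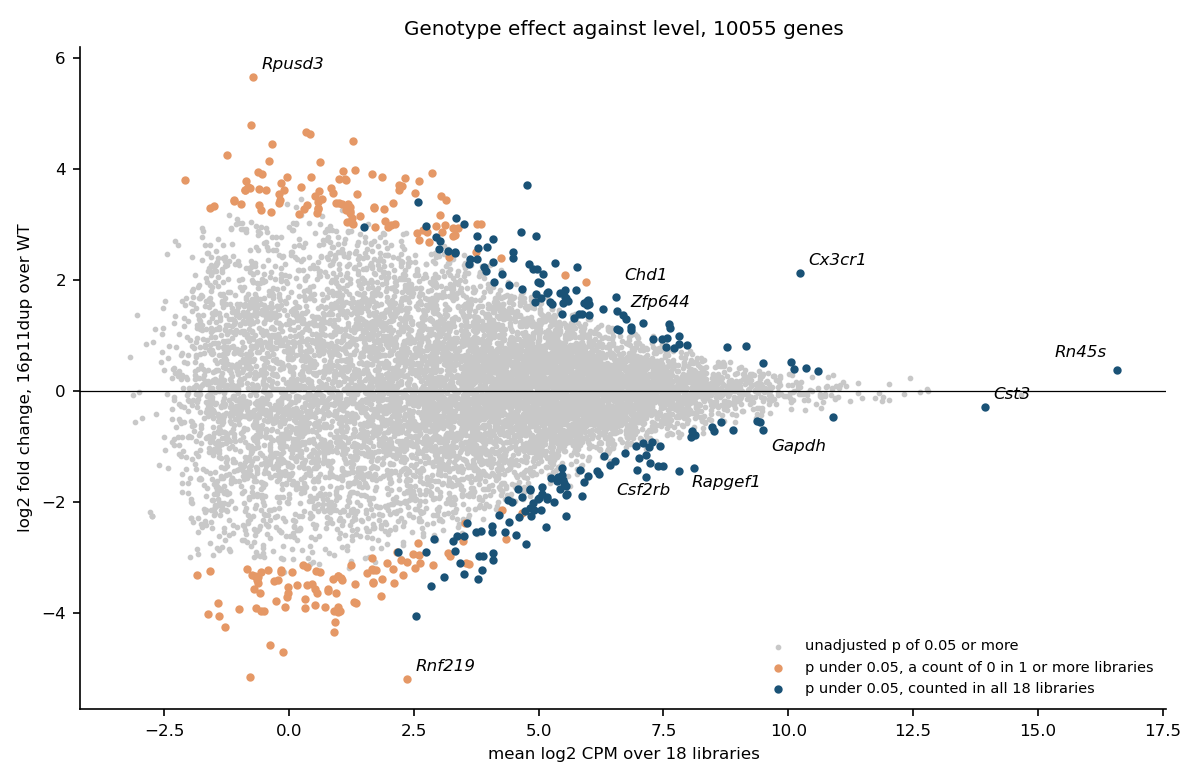
Log2 fold change of 16p11dup over WT (vertical axis) against the mean log2 CPM over 18 libraries (horizontal axis), 1 point per gene. Blue and orange points have an unadjusted p under 0.05, and 202 of these 390 genes have a count of 0 in at least 1 library (orange), mostly at low levels where fold changes are large and imprecise.

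Among the 3302 well-expressed genes, 55 were higher (1.67%) and 56 lower (1.7%), 3.36% in all, by the same unadjusted threshold. Genes from the 12 with the smallest p in each direction are described next. These p-values chose the genes and are no evidence about them as a group.

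Receptors of the microglial surface were among them. Cx3cr1, the receptor for fractalkine (chr9:119901616-120069879), had 346, 2768 and 3860 CPM as the lowest, median and highest value in 16p11dup libraries, against 16.1, 2385 and 4093 CPM in WT libraries. The genotypes overlapped over most of this range, and the difference lay in a tail of low libraries. Cx3cr1 was at 346 CPM in 16p11dup-Veh replicate 14 and at 16.1, 110, 121 and 163 CPM in 4 WT libraries, and at 2304 CPM or more in the other 13. P2ry12 was not low in those libraries. The log2 fold change of Cx3cr1 was 2.12 (SE 0.60, p = 0.000855 in limma), and an exact permutation of genotype within treatment gave p = 0.129. In edgeR its log2 fold change was 0.47, and its unadjusted p there was 0.426.

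Csf2rb, the shared signalling subunit of the GM-CSF and interleukin-5 receptors (chr15:78325752-78353847), was on the lower side, with 45.7, 80.8 and 189 CPM in 16p11dup libraries, against 93.6, 238 and 1108 CPM in WT libraries. All 8 16p11dup libraries were below the WT median, and the log2 fold change was -1.34 (SE 0.43, p = 0.0029, exact permutation p = 0.00422). Piezo1, a mechanically gated ion channel, had 11.4, 23.9 and 63.3 CPM in 16p11dup libraries, against 37.7, 62.9 and 336 CPM in WT libraries, with a log2 fold change of -1.85 (SE 0.67, p = 0.00813, exact permutation p = 0.00204). Only 2 of 8 16p11dup libraries, both treated with THC, reached the WT range.

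Several of the 24 genes encode nuclear proteins that act on chromatin or transcription. Zfp644, a zinc finger protein (chr5:106616739-106697287), had 74.3, 190 and 338 CPM in 16p11dup libraries, against 30.6, 59.8 and 121 CPM in WT libraries. Its 4 16p11dup-THC libraries were all above every WT library, and 16p11dup-Veh replicates 12 and 13 lay within the WT range. The log2 fold change was 1.43 (SE 0.49, p = 0.00558), and the exact permutation p of 0.000272 was the smallest among the 24 genes. Chd1, a chromodomain remodeller (chr17:15704967-15772610), had 87.4, 164 and 408 CPM in 16p11dup libraries, against 7.14, 67.9 and 323 CPM in WT libraries, with a log2 fold change of 1.69 (SE 0.54, p = 0.00268, exact permutation p = 0.0123). Apart from WT-THC replicate 7 at 323 CPM, no WT library exceeded 114 CPM. The HIRA complex component Ubn2 and the bromodomain protein Brwd1 were also higher, with log2 fold changes of 0.80 and 0.99. Tet3, an enzyme that oxidises methylated cytosine, was on the lower side, with 44.2, 113 and 289 CPM in 16p11dup libraries, against 122, 301 and 852 CPM in WT libraries. Each of the 8 16p11dup libraries was below the WT median. The log2 fold change of Tet3 was -1.35 (SE 0.42, p = 0.00261, exact permutation p = 0.00946). In THC libraries alone it was -2.48 and in vehicle libraries alone -0.36, and the interaction test of this difference gave an unadjusted p of 0.0144 and an FDR of 0.997 in limma.

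Daglb, a lipase that makes the endocannabinoid 2-arachidonoylglycerol (chr5:143464584-143505942), had 176, 330 and 755 CPM in 16p11dup libraries, against 47.3, 156 and 259 CPM in WT libraries. Each 16p11dup library was above the WT median, 3 of them (16p11dup-THC replicate 17 and 16p11dup-Veh replicates 13 and 16) by less than 30 CPM. Its log2 fold change was 1.13 (SE 0.40, p = 0.00682, exact permutation p = 0.00565). Ppp4r2, a regulatory subunit of protein phosphatase 4, had 56.9, 117 and 356 CPM in 16p11dup libraries, against 18.7, 39.8 and 130 CPM in WT libraries, with a log2 fold change of 1.56 (SE 0.57, p = 0.00874, exact permutation p = 0.000612). The catalytic subunit of that phosphatase, Ppp4c, lies inside the duplicated interval and had a log2 fold change of -0.18 (SE 1.21). Crat, the carnitine acetyltransferase, Tmem230, a protein of intracellular vesicles, and Eef1b2, a translation elongation factor, had log2 fold changes of 2.23, 2.30 and 1.64. On the lower side stood Rapgef1, an activator of the small GTPase Rap1 (chr2:29619720-29740978), with 33.3, 135 and 597 CPM in 16p11dup libraries, against 132, 347 and 810 CPM in WT libraries. Except for 16p11dup-THC replicate 17 at 597 CPM, every 16p11dup library was below the WT median, and the log2 fold change was -1.44 (SE 0.41, p = 0.000978, exact permutation p = 0.0116). N4bp1, an RNase that restrains inflammatory signalling, Apobec3, an antiviral cytidine deaminase, Eif4enif1, a partner of the cap-binding protein eIF4E, Tep1, a telomerase-associated protein, Rnf114, a ubiquitin ligase, and 8430427H17Rik had log2 fold changes between -2.46 and -1.39. That of 8430427H17Rik was -2.26, but -0.55 in edgeR (unadjusted p 0.485), and its exact permutation p was 0.147.

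**Figure D2:**
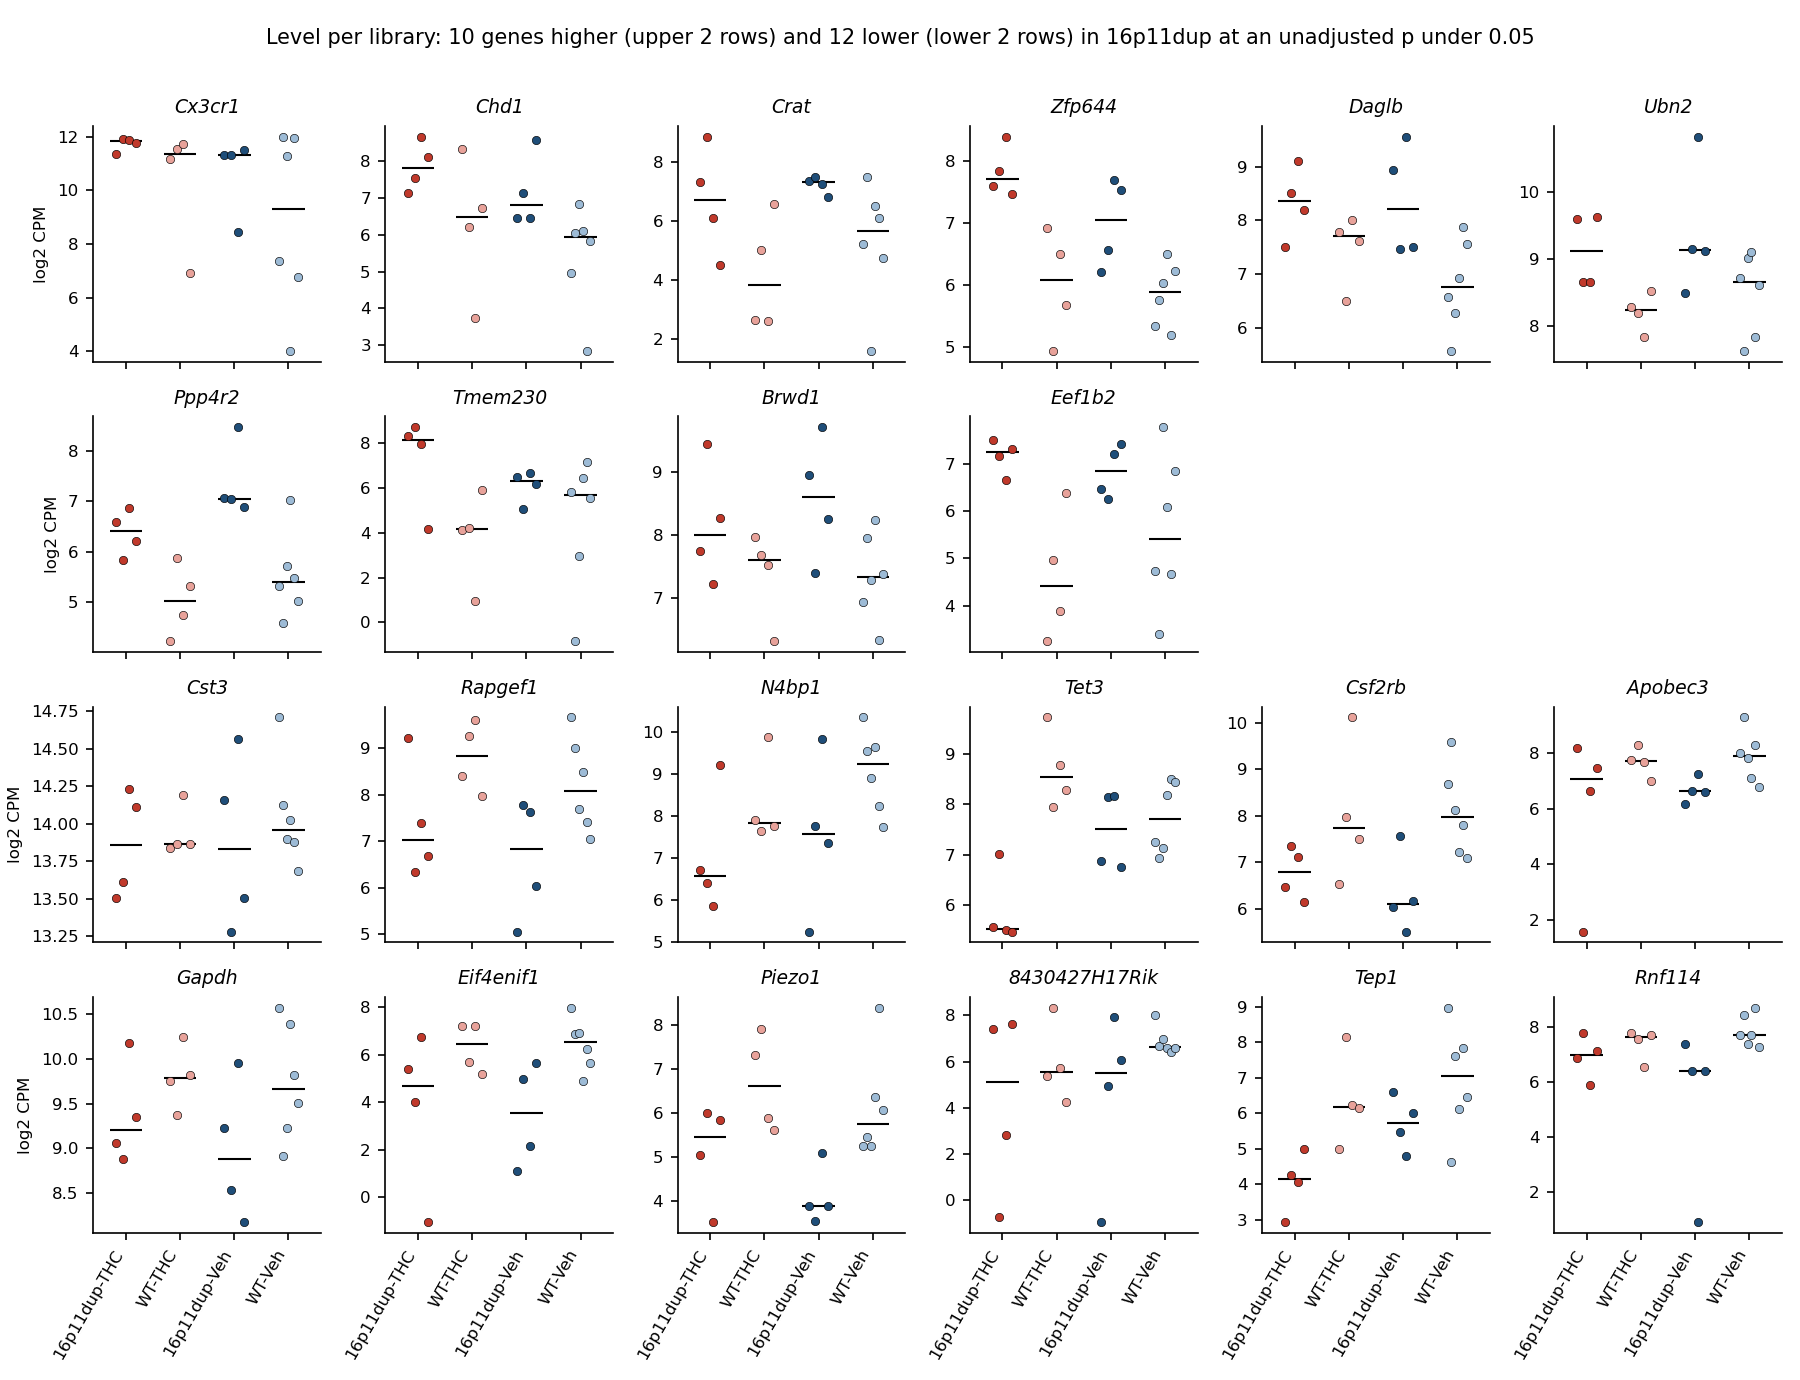
Level of 10 genes on the higher side and 12 on the lower side in every library, as log2 CPM on the vertical axis and by group on the horizontal axis, with 1 point per library and a bar at the group median. In each panel the 16p11dup and WT points overlap, and single low or high libraries stand apart in Cx3cr1, Ppp4r2, Cst3, Apobec3 and Rnf114.

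Gapdh, a glycolytic enzyme often used as a reference transcript (chr6:125161715-125166467), had 289, 567 and 1159 CPM in 16p11dup libraries, against 481, 885 and 1526 CPM in WT libraries. Of the 8 16p11dup libraries, 6 were below the WT median, and the log2 fold change was -0.70 (SE 0.24, p = 0.00517, exact permutation p = 0.0479). Its p was 0.0549 in edgeR and 0.0759 in DESeq2. Cst3, the secreted protease inhibitor cystatin C (chr2:148871722-148875692), had the smallest p of all genes, 0.000134, with a log2 fold change of -0.29 (SE 0.07). Its levels were 9940, 15083 and 24297 CPM in 16p11dup libraries, against 13134, 15137 and 26815 CPM in WT libraries. The medians differed by less than the spread within either genotype, only 4 of 8 16p11dup libraries were below the WT median, and the exact permutation p was 0.474. In the weighted model WT-Veh replicate 6 alone carried 50.9% of the weight for Cst3, where the heaviest library carries a median of 8.22% for the genes tested. Without weights the limma p of Cst3 was 0.24. The FDR of Cst3 was 0.04 without 16p11dup-Veh replicate 12, 0.0583 without 16p11dup-Veh replicate 14 and 0.000232 with the 5 deposited surrogate variables, and these were the only calls in those fits. Malat1 and Rn45s were the other genes in which 1 library carried over 25% of the weight. Rn45s, the ribosomal RNA precursor, chosen after its values were seen because it is the most abundant transcript, had 43447, 103867 and 187248 CPM in 16p11dup libraries, against 70296, 101975 and 136003 CPM in WT libraries. Its weighted log2 fold change was 0.38 (p = 0.0158), whereas its unweighted difference of mean log2 CPM was -0.12 (exact permutation p = 0.66).

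Over the 12 genes on the higher side, 11 had an unadjusted p under 0.05 also in edgeR and 10 kept it with each library left out in turn. Over the 12 on the lower side these numbers were 8 and 9. Exact permutation p-values were under 0.05 in 11 of 12 and 10 of 12. In DESeq2, 8 of the 24 genes were at an FDR below 0.10. The genes were chosen by p from these same libraries, so none of these counts is independent support for them. In GENCODE M21, the spans of Cx3cr1, Crat, Daglb, Eef1b2, Apobec3, Gapdh, Eif4enif1, Piezo1 and Rnf114 (introns included) are overlapped by further protein-coding genes. Reads were counted without strand, so their counts may hold reads of those neighbours. Gapdh and Eef1b2 also have processed pseudogenes. Expected counts of Eef1b2 were whole numbers in every library. Those of Csf2rb, of Gapdh and Ubn2 in most libraries, and of Piezo1 in some were not, and the division of their reads is uncertain.

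The 5 genes with the smallest p outside that selection were less abundant. Rpusd3, a mitochondrial pseudouridine synthase, was at 0, 8.48 and 67.3 CPM in 16p11dup libraries, against 0, 0 and 0.8 CPM in WT libraries. It exceeded every WT library in 6 of 8 16p11dup libraries, and 6 of 10 WT libraries had no count. Its fitted log2 fold change of 5.65 (SE 1.49, p = 0.000405, exact permutation p = 0.000748) depends on the 0.5 counts added. Usp31, a ubiquitin-specific peptidase, had 33.5, 89.6 and 345 CPM in 16p11dup libraries, against 0.479, 10.4 and 150 CPM in WT libraries, with a log2 fold change of 3.71 (SE 0.99, p = 0.000482, exact permutation p = 0.0066). Tmem164 had a log2 fold change of 2.80 (p = 0.00212, exact permutation p = 0.00993). In the other direction, Rnf219, a RING finger protein, was at 0, 0.239 and 37.8 CPM in 16p11dup libraries, against 0, 48 and 256 CPM in WT libraries. Gins2, a subunit of the GINS complex of DNA replication, did not exceed 0.207 CPM in any 16p11dup library, against 0, 10 and 125 CPM in WT libraries, 3 of which had no count. The log2 fold change was -5.18 for Rnf219 (p = 0.000867, exact permutation p = 0.00701) and -5.14 for Gins2 (p = 0.00182, exact permutation p = 0.00449). At least 1 library had no count in 4535 of the 10055 genes tested.

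Transcripts of the duplicated interval were examined as the direct target of the genotype. The interval from Slx1b to Sept1 spans chr7:126689468-127233130 in GRCm38. Of 28 listed 16p11.2 region genes, 21 were tested and 11 were counted in all 18 libraries. In proportion to copy number, 3 copies against 2 would give a log2 fold change of 0.58. Of the 21, 9 had a positive and 12 a negative log2 fold change, and at the unadjusted threshold of 0.05 none was higher and 1 was lower. That threshold was passed by 3.88% of all genes, and 1 of 21 is near that share. The 95% intervals held 0.58 in 19 of 21 genes and held 0 in 20 of 21, and 2 intervals lay wholly below 0.58. Over all genes tested, 89.5% of intervals held 0.58.

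Coro1a, an actin-binding coronin of leukocytes (chr7:126699773-126707787), was the region gene measured most precisely. It had 107, 274 and 732 CPM in 16p11dup libraries, against 211, 436 and 971 CPM in WT libraries, and the ranges overlapped between 211 and 732 CPM. Its log2 fold change was -0.53 (SE 0.33, 95% interval -1.20 to 0.14), which lies below 0.58. Mapk3, the kinase ERK1 (chr7:126759601-126765819), had 21.9, 118 and 750 CPM in 16p11dup libraries, against 18, 191 and 400 CPM in WT libraries, with a log2 fold change of -0.16 (SE 0.54, 95% interval -1.24 to 0.92). Aldoa, the glycolytic aldolase (chr7:126800790-126809108), had 121, 193 and 1263 CPM in 16p11dup libraries, against 83.9, 138 and 384 CPM in WT libraries, and 7 of 8 16p11dup libraries were above the WT median. Its log2 fold change was 0.61 (SE 0.42, 95% interval -0.23 to 1.44). Taok2, a kinase upstream of MAP kinases, had 74.6, 138 and 315 CPM in 16p11dup libraries, against 18.5, 147 and 407 CPM in WT libraries, with 4 of 8 16p11dup libraries on either side of the WT median (log2 fold change 0.35, SE 0.50). Ypel3 had a log2 fold change of -0.14 (SE 0.45).

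The other region genes were measured less precisely. On the positive side, AI467606, Slx1b, Tmem219, Pagr1a, Doc2a, Maz and Prrt2 had log2 fold changes of 2.14, 1.93, 1.67, 1.17, 0.95, 0.80 and 0.68. Tmem219, a receptor of insulin-like growth factor binding protein 3, had 23.3, 54.6 and 171 CPM in 16p11dup libraries, against 0.185, 17.7 and 125 CPM in WT libraries. The 16p11dup libraries were all above the WT median, and its p was 0.0763. On the negative side stood Hirip3, which binds the histone chaperone HIRA (chr7:126861972-126865377). It was at 0, 2.47 and 85.5 CPM in 16p11dup libraries, against 4.45, 10.7 and 49.9 CPM in WT libraries. No count was found in 3 of 8 16p11dup libraries and in 0 of 10 WT libraries, although 16p11dup-THC replicate 21 had the highest value of all. Its log2 fold change was -3.46 (SE 1.41, p = 0.0172, exact permutation p = 0.0169), its unadjusted edgeR p was 0.42, and its span overlaps Ino80e. Bola2, Tbx6, Gdpd3, Kctd13, Mvp, Cdipt, Ppp4c and Ino80e had log2 fold changes of -1.65, -0.98, -0.77, -0.67, -0.31, -0.20, -0.18 and -0.03. Cd2bp2 and Tbc1d10b, at the distal end of the interval, were at -2.01 and 0.27.

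The median log2 fold change of the region genes was -0.14, against 0.03 for all genes. This median changed sign with the processing: it was 0.29 in edgeR, 0.29 in DESeq2, 0.04 without weights and 0.34 over the 11 genes counted in every library. In the separate fits of THC and of vehicle libraries it was 0.16 and 0.31. The deviation of each 16p11dup library from the WT libraries of its treatment, as the median over region genes, was 0.19, 0.09, 1.40 and -0.66 in the THC libraries and 0.98, 0.67, 1.18 and -0.21 in the vehicle libraries. Of these 8 deviations 6 were positive, and their SD of 0.72 exceeded the proportional dosage of 0.58. The deviations were taken from the WT mean of log2 CPM, which counts of 0 lower. WT libraries were not measured in the same way, so the number of positive deviations is no measure of dosage. The genotype labels were used as given, since these transcripts could not be used to check them at this spread. None of 60 tested neighbours within 3 Mb had an unadjusted p under 0.05, and their median was -0.09. Of all genes 3.88% had such a p, and the count among neighbours was not tested against that share.

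**Figure D3:**
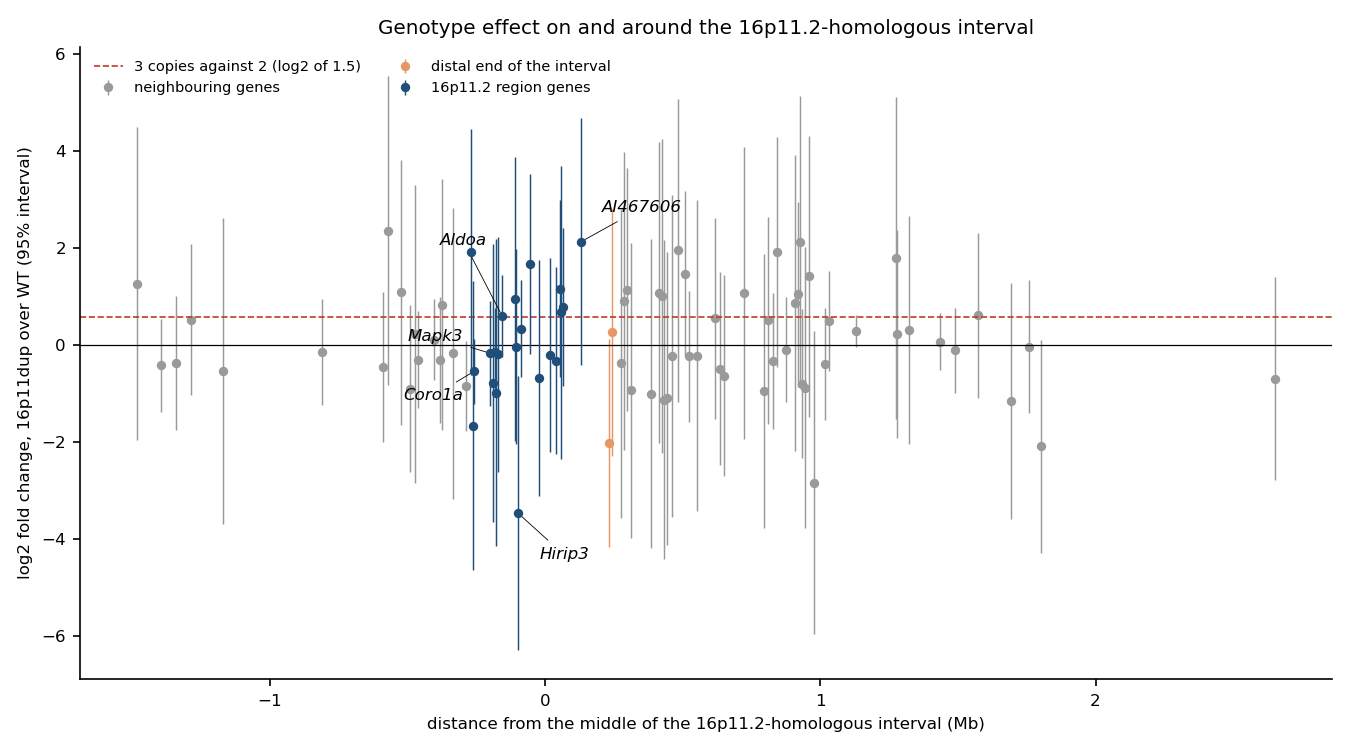
Log2 fold change of 16p11dup over WT with its 95% interval (vertical axis) for tested genes by distance in Mb from the middle of the interval (horizontal axis). Region genes (blue) scatter around 0 as their neighbours do (grey), and nearly all their intervals hold both 0 and the dashed line of 3 copies against 2, at 0.58.

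Microglial identity was next examined with 24 listed homeostatic markers, of which 23 were tested. Cx3cr1 was higher and Cst3 lower at an unadjusted p under 0.05, which 3.88% of all genes had. The log2 fold changes of the 23 lay between -0.61 and 2.12, 9 positive and 14 negative, with a median of -0.04. This median was 0.25 in THC libraries and -0.11 in vehicle libraries. The intervals of 20 of the 23 lay wholly below a log2 fold change of 0.58, against 10.1% of all genes. All 23 were counted in every library, whereas 4535 of all genes tested had a library without a count. These shares were not matched for level or standard error (median 1.18 over all genes), so their contrast does not measure microglial identity. The bound concerns increases only, and 7 of the 23 had the same sign in both treatments. P2ry12, a purinergic receptor and sort marker, had 2314, 3590 and 5704 CPM in 16p11dup libraries, against 2829, 3459 and 5273 CPM in WT libraries, and a log2 fold change of -0.05 (SE 0.12, 95% interval -0.28 to 0.19). Among the markers near 0, Csf1r, Siglech and Tmem119 had log2 fold changes of 0.03, 0.00 and -0.09. The other sort markers, Itgam (CD11b) and Ptprc (CD45), had 0.29 (SE 0.17) and 0.13 (SE 0.31). All of these ranges overlapped between the genotypes.

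Among 17 tested genes of the disease-associated microglial state, Cd63 was higher and Csf1 lower at an unadjusted p under 0.05, with a list median of 0.08. Of all genes, 3.88% had such a p. Cd63, a lysosomal tetraspanin, had 98.6, 177 and 294 CPM in 16p11dup libraries, against 35.9, 71.5 and 289 CPM in WT libraries, and a log2 fold change of 1.14 (SE 0.47, p = 0.0196, exact permutation p = 0.00701). All 8 16p11dup libraries were above the WT median. The growth factor gene Csf1 was at most 1.81 CPM in 16p11dup libraries, against 0, 7.42 and 246 CPM in WT libraries (log2 fold change -3.49, p = 0.0323, exact permutation p = 0.0413). Apoe and Cst7, other genes of that state, had log2 fold changes of 0.62 (SE 0.70) and 0.13 (SE 1.63).

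Innate signalling genes of the Toll-like receptor and NF-kappaB list numbered 37 tested, 24 positive and 13 negative, with a median of 0.24. Only 15 of the 37 had the same sign in both treatments. Tlr5, the flagellin receptor, and Relb, an NF-kappaB subunit, were higher at unadjusted p-values of 0.0422 and 0.0488 (0.0813 and 0.0931 in the exact permutation test). In this list 0 genes were lower. Relb was counted in 6 of 8 16p11dup and 3 of 10 WT libraries, and 9 libraries is the least the filter allowed. It passed the filter mainly through the 16p11dup libraries, so its p is no support for a difference. Its p was 0.364 in edgeR and 0.442 in DESeq2. With each library left out in turn, Relb had a p under 0.05 in 5 and Tlr5 in 10 of 18 fits. Tlr5 had 8.59, 53.1 and 401 CPM in 16p11dup libraries, against 0.431, 20.4 and 89.6 CPM in WT libraries, and 7 of 8 16p11dup libraries were above the WT median. Of 16 MHC class I genes, the transactivator Nlrc5 was lower (log2 fold change -3.64, p = 0.0288, exact permutation p = 0.0619). Of 10 MHC class II, 26 interferon-stimulated and 19 complement and phagocytosis genes, 0 had an unadjusted p under 0.05. Such a p was found in 3.88% of all genes, and the counts in these lists, and in the stress list that follows, are near that share. In the stress list of 23 genes, Rhob, a small GTPase induced early after stimulation, was higher. It had 943, 1347 and 2141 CPM in 16p11dup libraries, against 672, 999 and 1295 CPM in WT libraries, with a log2 fold change of 0.39 (SE 0.17, p = 0.0302, exact permutation p = 0.0182).

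The MAP kinase cascade, to which the region genes Mapk3 and Taok2 belong, had 48 tested genes, of which 1 was higher and 3 were lower (3.88% of all genes were one or the other), and a median of -0.07. Dusp3, a phosphatase that acts on ERK, had 35.5, 77 and 282 CPM in 16p11dup libraries, against 1.91, 14.5 and 63.7 CPM in WT libraries. All 8 16p11dup libraries were above the WT median, and the log2 fold change was 2.20 (SE 0.80, p = 0.00824, exact permutation p = 0.00293). Among those lower were the adaptor Grb2 and the phosphatase Dusp7, with log2 fold changes of -1.33 and -0.91 and p-values of 0.0281 and 0.0426 (0.0459 and 0.0597 in the exact permutation test). Of 43 actin regulators, the group of Coro1a, 1 was lower, Tnfaip1, an adaptor of the Cul3 ubiquitin ligase and relative of Kctd13 (log2 fold change -1.85, p = 0.0259, exact permutation p = 0.0288).

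Of the cell death lists, 0 of 24 pro-apoptotic genes, 0 of 19 anti-apoptotic genes and 0 of 23 genes of p53 and its targets had an unadjusted p under 0.05. Over all genes this share was 3.88%, and counts of 0 in lists of this size are near it. Trp53, which encodes p53, had a log2 fold change of 0.19 (SE 0.49), and Bax and Cdkn1a, p53 targets, had 1.29 (SE 1.12) and -0.57 (SE 1.70). With such errors, increases of 2-fold and more were within the intervals of both targets, and for Cdkn1a decreases of 2-fold and more as well. In the cannabinoid system, Daglb was the 1 gene of 9 tested with an unadjusted p under 0.05. The median of these 9 genes was 0.72, with 8 positive, but only 4 of the 9 had the same sign in both treatments. Cnr2, the cannabinoid receptor of immune cells, had a log2 fold change of 1.22 (SE 1.24), and Mgll, which degrades 2-arachidonoylglycerol, 1.32 (SE 1.36).

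Of 47 lysosomal genes, 3 were higher and 2 lower, where 3.88% of all genes had such a p. In sign, 13 were positive and 34 negative, against 5170 positive of all 10055 genes, and the median was -0.11. Only 21 of the 47 had the same sign in both treatments. Beside Cd63 the higher genes were Ids and Gaa, hydrolases of glycosaminoglycans and glycogen. Their log2 fold changes were 0.82 (exact permutation p = 0.0254) and 1.38 (exact permutation p = 0.0199). The protease Ctsh and the sialidase Neu1 were on the lower side, at log2 fold changes of -0.66 and -1.77. The exact permutation p of Ctsh was 0.0515, and with each library left out in turn Ctsh had a p under 0.05 in 9 and Gaa in 7 of 18 fits. Of 80 cytosolic ribosomal protein genes, 23 were positive and 57 negative, with a median of -0.21, and 42 had the same sign in both treatments. The called members were Rps27l, Rpl10 and Rpl10a, with log2 fold changes of 2.92, -0.57 and -0.79 (exact permutation p = 0.0273, 0.0111 and 0.101), and genes of this family have many pseudogene copies that may share reads. Rpl10 had 240, 286 and 538 CPM in 16p11dup libraries, against 354, 504 and 674 CPM in WT libraries. Among 75 respiratory chain and ATP synthase genes, Cox6c was higher and Ndufb2 lower, at log2 fold changes of 2.97 and -3.41 (exact permutation p = 0.0249 and 0.051). Neither had a p under 0.05 in edgeR, and Ndufb2 had one in 7 of 18 fits with a library left out. The proteasome (43 genes) and the cell cycle (18 genes) held 0 such genes. Mrpl20, 1 of 77 mitochondrial ribosomal protein genes, was at -3.00, and Sf3a3, 1 of 66 splicing factors, at 3.43. Their exact permutation p-values were 0.0127 and 0.0262, and their edgeR p-values 0.0662 and 0.0805. Mrpl20 had no count in any 16p11dup-THC library, and its log2 fold change was -5.19 in THC libraries and -0.74 in vehicle libraries. It had a p under 0.05 in 11 of 18 fits with a library left out. Of 55 chromatin modifiers, 2 were higher (Ubn2 and Smarcc2) and 3 lower (Tet3, Kmt2d and Hirip3), beside 3.88% of all genes. Kmt2d, a histone methyltransferase, had 340, 547 and 894 CPM in 16p11dup libraries, against 465, 782 and 2097 CPM in WT libraries (log2 fold change -0.55, p = 0.0255, exact permutation p = 0.0276).

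**Figure D4:**
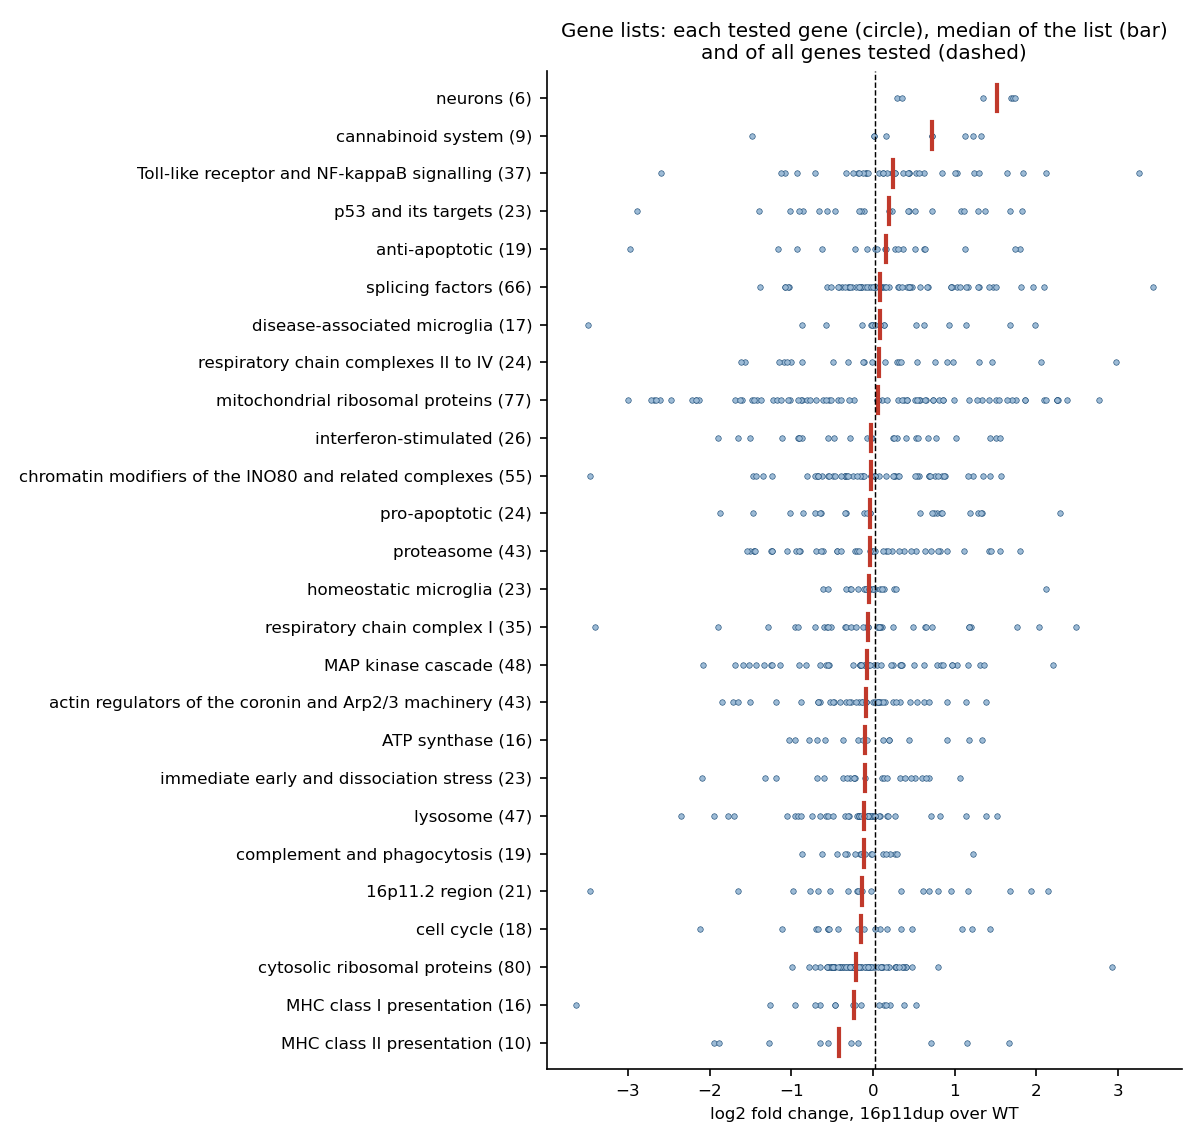
Log2 fold change of 16p11dup over WT (horizontal axis) for each tested gene (circles) of the lists with at least 5 tested genes (vertical axis, number tested in parentheses), with the median of each list as a red bar. Most medians lie near the dashed median of all genes, 0.03, and the neuronal and cannabinoid lists, with 6 and 9 tested genes, lie farthest to the right.

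Most markers of other brain and blood cells were sparse in both genotypes, and those of border macrophages had the highest summed level. In bulk RNA, fewer cells of a type and less RNA per cell cannot be told apart. Of 18 neuronal markers 6 were tested, all with positive log2 fold changes (median 1.52, with 2.57 in THC libraries and 0.04 in vehicle libraries) and 0 at an unadjusted p under 0.05. Their summed level was 6.6, 58.6 and 171 CPM in 16p11dup libraries, against 7.84, 49.4 and 167 CPM in WT libraries, and 4 of the 17 found in the table had no count in any library. The sums of astrocyte markers were 57.3 to 321 CPM in 16p11dup libraries and 45.5 to 292 CPM in WT libraries, and those of oligodendrocyte markers 6.82 to 140 CPM in 16p11dup libraries and 13.5 to 194 CPM in WT libraries. Endothelial and mural markers summed to 1.55, 29.2 and 166 CPM in 16p11dup libraries, against 1.9, 69.9 and 229 CPM in WT libraries. Of 15 such markers 3 were tested, 1 positive and 2 negative (median log2 fold change -0.18, highest 1.18). Only 1 of the 3 had the same sign in both treatments. Among them Pecam1, an endothelial adhesion molecule, was lower at p = 0.0236 (log2 fold change -3.34, exact permutation p = 0.062). In edgeR its log2 fold change was -1.62, and neither edgeR nor DESeq2 placed Pecam1 under the unadjusted threshold of 0.05. Border macrophage markers summed to 393, 584 and 924 CPM in 16p11dup libraries, against 297, 419 and 996 CPM in WT libraries. Of 12 listed, 2 were tested, both positive (median log2 fold change 1.10) with the same sign in both treatments. Of these, 0 had an unadjusted p under 0.05. Of 14 monocyte and neutrophil markers and 16 lymphocyte markers, 2 and 1 were tested. Every one of these ranges overlapped between the genotypes, and the part of such cells in the results above was not tested.

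The genotype effect was then set side by side in the treatments, which share no library. In the 4 16p11dup-THC and 4 WT-THC libraries, 512 genes had an unadjusted p under 0.05 (5.09%), 233 higher and 279 lower. In the 4 16p11dup-Veh and 6 WT-Veh libraries there were 230 (2.29%), 103 higher and 127 lower. No gene passed an FDR of 0.10 in limma in either treatment. The direction was the same in both treatments for 5004 of 10055 genes (49.8%). Pearson's r between the log2 fold changes was 0.002 and Spearman's rho -0.005 across genes, which are not independent replicates. Of the 512 genes from THC libraries, 46.9% had the same sign in vehicle libraries, and of the 230 genes from vehicle libraries, 50.4% had the same sign in THC libraries.

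The THC and vehicle fits called 5.09% and 2.29% of genes, and unrelated fits would also share some calls. At an unadjusted p under 0.05 in both treatments, 8 genes had the same direction and 6 the opposite, numbers not tested against chance. The 8 were Cx3cr1, Crat and Rpusd3 on the higher side and Rapgef1, N4bp1, Csf2rb, Rnf219 and Cdc7 on the lower side. Cx3cr1 had log2 fold changes of 1.74 in THC libraries and 2.52 in vehicle libraries. Crat had 2.66 and 2.44, and Rapgef1 had -1.64 and -1.19. Csf2rb had -1.38 and -1.37, and its levels in vehicle libraries, 45.7 to 189 CPM in 16p11dup-Veh and 137 to 773 CPM in WT-Veh, overlapped in 1 16p11dup-Veh library. Cdc7, a kinase of replication origins, did not exceed 0.163 CPM in 16p11dup libraries and reached 19.3 CPM in WT libraries. The 6 opposite genes were Mtch2, Polr1c, Cisd1, Capn10, Top2a and Seh1l. Seh1l, a nucleoporin, was the only well-expressed one, with log2 fold changes of 3.76 in THC libraries and -2.98 in vehicle libraries. The interaction of genotype and treatment had 398 genes with an unadjusted p under 0.05 (3.96%) and 0 at an FDR below 0.10, with a smallest FDR of 0.343.

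**Figure D5:**
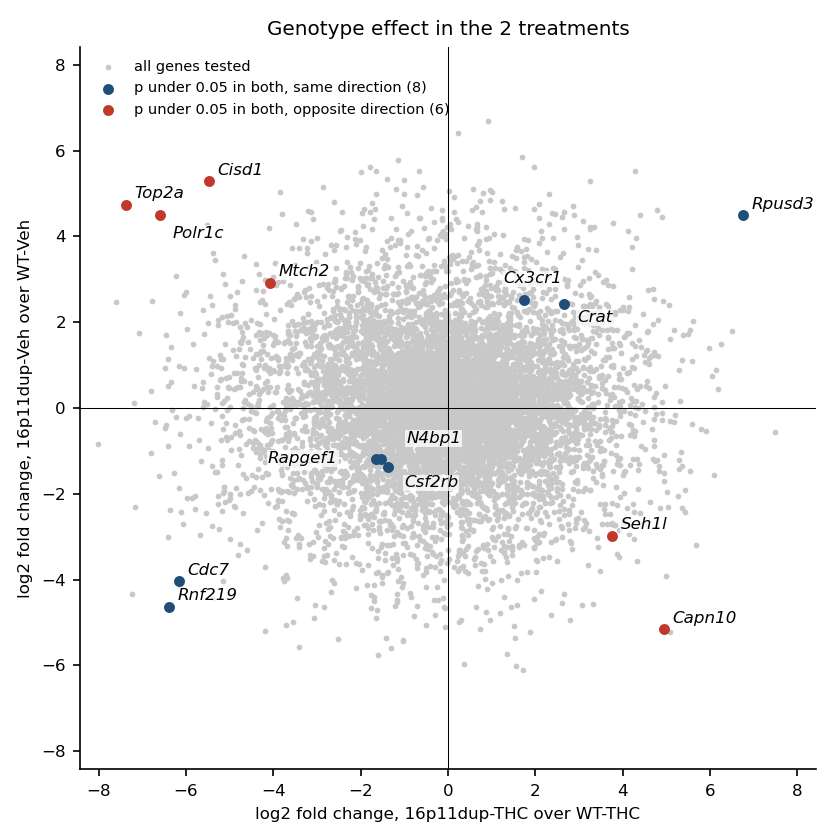
Log2 fold change of 16p11dup-THC over WT-THC (horizontal axis) against that of 16p11dup-Veh over WT-Veh (vertical axis), 1 point per tested gene. The cloud has no slope (Pearson's r 0.002), and 8 genes with p under 0.05 in both treatments share a direction (blue) while 6 do not (red).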

How the data were processed

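RNA of sorted mPFC microglia was sequenced in 18 libraries. The authors aligned reads to GRCm38 (mm10), counted them with RSEM 1.3.0 without strand and left out 4 outlying libraries. The log2 CPM values were deposited by the authors as voom writes them, with 0.5 counts added. Expected counts were recovered here from these deposited values, and 94.6% of non-zero counts lay within 0.02 of a whole number. The authors deposited read counts for each library, and with them each fraction of reads (mapped, exonic, intronic). Scores for 5 surrogate variables, also deposited by the authors, entered 1 alternative. An other column on ribosomal DNA, deposited by the authors with no stated unit, was not used.

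Genes counted in 9 or more libraries were fitted in limma 3.58.1 with voom weights, genotype, treatment and the percentage of mapped reads, and adjusted by Benjamini-Hochberg at 0.10. Tests were two-sided. Exact permutation tests exchanged genotype within treatment (14700 arrangements, smallest p 6.8e-05). Intervals are 95% intervals of the model. Named genes are the 12 with the smallest p in each direction among genes counted in all 18 libraries at a mean log2 CPM of at least 5, region genes, list members at p under 0.05 (at most 4 per list), the sort markers and the 5 next smallest p. Others were named beside a count. A few genes that the rule or the lists hold are counted but not reported here. The members and lists were chosen with earlier results of these data known. Rounded counts were also tested in edgeR 4.0.16 and DESeq2 1.42.0. Further alternatives were other weights, filters, offsets, scalings and covariates, and each library left out. The scripts were tested on simulated data. R 4.3.3, Python and GENCODE M21 coordinates were used.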

Additional observations from a re-analysis of the deposited data

Results flagged for a closer look

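Each value below is the lowest or highest of its genotype and lay far from the next library on the log2 scale. Of 156 sets of libraries examined (1 gene in 1 genotype each), 15 were so marked, and chance marks about 1 in 20. The library 16p11dup-Veh replicate 14 held 4 of them: Cx3cr1 was lowest at 346 CPM (next 2529), Ppp4r2 highest at 356 CPM (next 134), Rnf114 lowest at 1.86 CPM (next 59.2) and Aldoa highest at 1263 CPM (next 357). Among 16p11dup-THC libraries, Apobec3 was lowest at 2.99 CPM in replicate 18, Tnfaip1 lowest at 0.602 CPM in replicate 17, and Cdipt and Cd2bp2 were at 0 CPM in replicate 21. Among WT libraries, Cst3 was highest at 26815 CPM in WT-Veh replicate 1, Ino80e and Tmem219 were lowest at 0.308 and 0.185 CPM in WT-Veh replicate 2, Rnf219 was at 0 CPM in WT-Veh replicate 5, Kctd13 was at 0 CPM in WT-THC replicate 9, and Gaa and Mrpl20 were lowest at 3.06 and 0.161 CPM in WT-THC replicate 8.

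The filter left 3909 genes with some count untested. Fam57a was the 1 gene among them with a count in at least 5 of 8 16p11dup libraries and no WT library. It was counted in 5 16p11dup libraries, at a median of 0.343 and a highest value of 5.92 CPM. The reverse pattern, at least 5 of 10 WT libraries and no 16p11dup library, was seen in 14 genes. No test was made of either.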

How the results depend on the processing

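No paired analysis was possible because the library numbers are unique and the groups share none. No log2 fold change with a p under 0.05 among the genes named by rule changed sign among the settings tried. Rn45s, named outside the rule, had 0.38 with weights and a difference of -0.12 without. The genes at FDR below 0.10 numbered 0, with 109 in DESeq2 and 1 (Cst3) with the 5 surrogate variables. The unadjusted threshold gave 197 higher and 193 lower genes, against 250 and 176 in edgeR, 498 and 442 in DESeq2, 328 and 315 with no filter (22428 genes tested), and 102 and 113 among the 5520 genes counted in all 18 libraries. With each library left out in turn, FDR calls ranged from 0 to 1, genes higher from 127 (without WT-THC replicate 7) to 260, genes lower from 164 to 266 (without 16p11dup-Veh replicate 13), and the median of the region genes from -0.19 to 0.15. Of the 109 DESeq2 calls, 66 had a limma p under 0.05 and 15 were well expressed. Weights estimated with the design and the fit without the 3 libraries least like the others were chosen after seeing the data, and gave 258 and 194 and 192 and 200 genes. What sets the counts of 0 beside high counts of the same gene was not tested.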
